A study of Homo sapiens with 8 samples.

Results

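The carbonic anhydrases are described here as they were measured in knockdown clones of CAPAN-2, an established cell line of human pancreatic adenocarcinoma. The members were CA2, CA4, CA8, CA9, CA11, CA12 and CA13. They were taken as every probe whose transcript accession maps to 1 of these 7 symbols, which gave 9 probes of the 41000 on the array, for 7 of 17240 named genes. The set was chosen by the CA9 log2 ratios of the ErbB2-KD arrays, which had been seen to differ between clones, so the ErbB2-KD values of the members are a description without a test.

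Carbonic anhydrases turn carbon dioxide and water into bicarbonate and a proton, and back. CA2 and CA13 work in the cytosol, CA4 is held on the outer face of the plasma membrane by a lipid anchor, and CA9 and CA12 span the membrane with their catalytic domain outside the cell. CA8 and CA11 are related proteins without catalytic activity. In the pancreas, bicarbonate secretion is a task of the duct epithelium, and CA9 is a well-known target of the hypoxia-inducible factors (HIFs), the transcription factors that respond to low oxygen.

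The 250 bases before the start of CA9 and of CA12 are shown because HIF binds a short core of which CA9 carries a copy next to its start. The sequences are from RefSeq on GRCh38.p14, 5′ to 3′ on the strand of the gene, and 2 of the 7 members had an entry in the table used. CA9 lies at chr9:35673678-35673927 on the plus strand and CA12 at chr15:63381847-63382096 on the minus strand, both windows upstream of the first exon. Capitals mark ACGTG or GCGTG on either strand.
CA9: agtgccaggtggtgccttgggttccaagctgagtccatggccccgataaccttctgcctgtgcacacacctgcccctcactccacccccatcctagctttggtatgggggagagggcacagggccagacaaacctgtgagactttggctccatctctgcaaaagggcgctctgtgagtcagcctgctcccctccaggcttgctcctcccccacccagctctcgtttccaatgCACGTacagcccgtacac
CA12: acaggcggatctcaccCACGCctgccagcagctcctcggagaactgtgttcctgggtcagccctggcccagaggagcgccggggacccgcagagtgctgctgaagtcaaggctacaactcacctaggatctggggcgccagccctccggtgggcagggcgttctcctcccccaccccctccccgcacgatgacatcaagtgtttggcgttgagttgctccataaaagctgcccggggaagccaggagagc
The CA9 window held 1 match, ACGTG on the other strand, from 18 to 14 bases before the start. The CA12 window held 1 match, GCGTG on the other strand, from 234 to 230 bases before the start. Of 35116 promoter windows of this length, 18.5% held ACGTG, 32.2% held GCGTG and 43.2% held either, so such a match is common.

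Each array compared 1 knockdown RNA with a control pool in the other dye. On 4 arrays the RNA of ErbB2-KD clones (EV7, EV12, EV9 and EV18 on arrays 1 to 4), stably transfected with a puromycin vector for an ErbB2 shRNA, was set against NT, a pool of 4 clones with the empty vector. On the other 4 arrays RNA labelled MUC4-KD, from cells infected with a retroviral vector for a MUC4 shRNA, was set against Mock, the matching pool of empty-vector clones. The labels do not name the MUC4-KD clones. The knockdown was in Cy5 on ErbB2-KD arrays 1 and 2 and MUC4-KD arrays 3 and 4, and in Cy3 on the rest.

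Values are log2 ratios of labelled knockdown over control, so that 1 is a doubling, with the SD over 4 arrays. For MUC4-KD this direction is opposite to that of the study's own gene list, and a MUC4 probe was itself higher in the RNA labelled MUC4-KD (A_24_P208825, 1.84, limma adjusted p = 0.00803). Of the other MUC4 probes tested there, 1 also passed the test, higher (A_24_P239183, 1.34, limma adjusted p = 0.0354), and the other two did not. Every MUC4-KD direction below is as labelled. ERBB2 was lower on all 4 ErbB2-KD arrays (A_23_P89249, mean -0.40 ± 0.12, SD, n = 4), with a limma adjusted p of 0.145, while a second ERBB2 probe gave 0.04 (A_24_P284420, limma adjusted p = 0.897). The arrays lay on 3 slides, the share of probes that the scanner software called well above background ranged from 56.6% to 74.1% by channel, and no spot was saturated. All 8 duct epithelium markers could be tested on the ErbB2-KD arrays and 7 of them on the others, and no acinar or fibroblast marker was bright enough to test. Of 10 duct marker probes tested in MUC4-KD, 1 was called higher and 0 lower, beside 12.0% and 8.50% of all probes. It was that of KRT19, a keratin (1.02, limma adjusted p = 0.00584). When the background correction was fitted without outlier spots (below), 2 were higher, SOX9 being added (0.80, limma adjusted p = 0.0293). In that fit 29.1% of all probes passed. All RNA came from clones of 1 cell line, so these markers are not read as shares of cell types.

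On 3 arrays a few spots with an extreme local background set the parameters of the background correction (normexp). On MUC4-KD array 4, 2 Cy3 spots reached a background of up to 73162 against a median of 39, and the fitted Cy3 background mean was -549.5, against 1.21 without the spots that the scanner software flags as outliers. ErbB2-KD array 4 (Cy5 mean -204.1 against -11.6) and ErbB2-KD array 2 (Cy3 mean -28.9 against 22.1) were affected in the same way. The member ratios on these arrays mostly lay nearer 0 than they did without the flagged spots. The correction on all spots is kept as the main one. The values without the flagged spots, a setting chosen after seeing the data, are given beside the member ratios that they move most. They are also given beside most of the list counts that they change.

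CA9 was the member with the widest range of ratios. In ErbB2-KD its log2 ratio was 2.95 on array 1, 0.20 on array 2, 3.65 on array 3 and -0.09 on array 4 (mean 1.68 ± 1.90, SD, n = 4). Clones EV7 and EV9 were thus 7.70 and 12.5 times the NT pool, while EV12 and EV18 lay at 1.15 and 0.941 times the pool. The spot signals behind this were 2005, 773.5, 3196.5 and 70 in the clones and 147, 264, 459.5 and 140 in NT on the same arrays, before any correction for dye or background. The 2 high clones were labelled with different dyes and shared a slide, on which MUC4-KD array 2 also lay, and the part of the slide in this difference was not tested. Without the flagged spots the ErbB2-KD ratios were 2.95, 0.22, 3.65 and -0.19. Of 3 leukocyte and 3 endothelial markers, CD68 and VWF were bright enough to test in ErbB2-KD. CD68, a macrophage protein, gave 0.69, -0.03, 1.36 and 0.98, and VWF, a clotting protein of endothelium, gave 0.74, 0.06, 1.34 and 0.52. Both were highest in EV9, as CA9 was. They were lowest in EV12, whereas CA9 was lowest in EV18, where CD68 and VWF were above the pool. The other four markers (PTPRC, CD3E, PECAM1 and CDH5) were too dim to test, with means from -0.05 to 0.04. The RNA came from CAPAN-2 clones isolated by serial dilution, so CD68 and VWF are not read as markers of such cells here.

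In RNA labelled MUC4-KD, CA9 was higher on each of the 4 arrays, at 2.45, 2.59, 2.63 and 0.40 (mean 2.02 ± 1.08, SD, n = 4, limma adjusted p = 0.024). The spot signals were 513, 475, 821 and 701 in the knockdown and 172, 138, 73.5 and 93 in Mock. Array 4 stood apart from the other three in the ratio, and it is the array with the most distorted background fit. Without the flagged spots its CA9 ratio was 1.61 and the mean 2.32 ± 0.48 (SD, n = 4, limma adjusted p = 0.00173), and the log ratio that the scanner software gave for array 4 was 2.36. The call was lost when array 1, 2 or 3 was left out (limma adjusted p = 0.0951, 0.0928 and 0.137) and kept without array 4 (limma adjusted p = 0.00074).

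**Figure D1:**
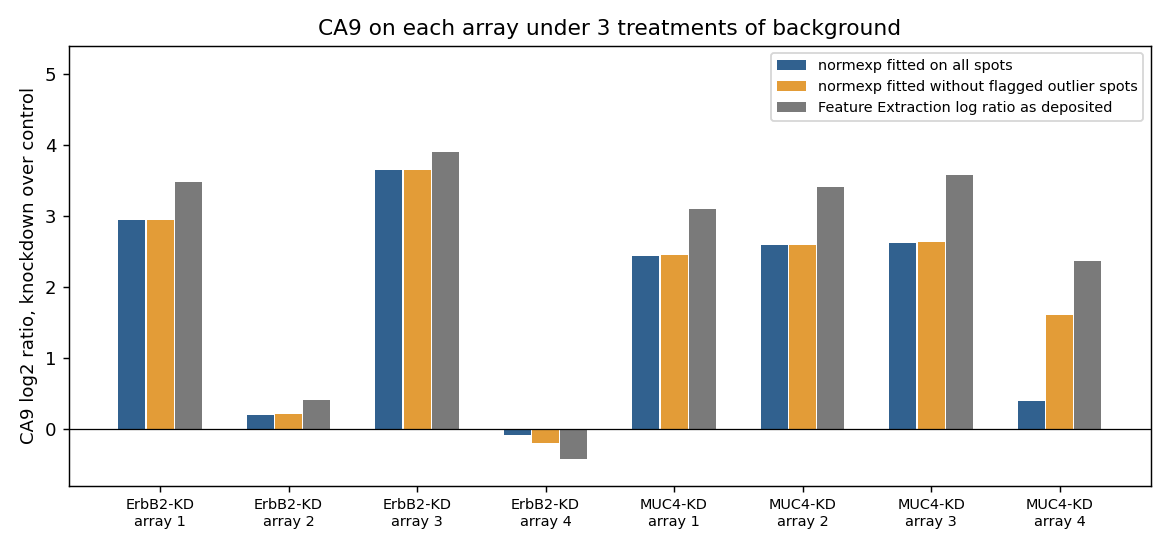
Log2 ratio of CA9, labelled knockdown over control pool, on each of the 8 arrays (bars, 1 array each) with normexp fitted on all spots, with normexp fitted without flagged outlier spots, and as the log ratio deposited from the scanner software. The 3 treatments lie apart most on MUC4-KD array 4, at 0.40, 1.61 and 2.36, and all put ErbB2-KD arrays 1 and 3 far above arrays 2 and 4.

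By slide, ErbB2-KD arrays 1 and 3 and MUC4-KD array 2 gave CA9 ratios of 2.95, 3.65 and 2.59. ErbB2-KD array 4 shared a slide with MUC4-KD arrays 1 and 3, where the ratios were -0.09, 2.45 and 2.63. ErbB2-KD array 2 and MUC4-KD array 4, on the third slide, gave 0.20 and 0.40, or 0.22 and 1.61 without the flagged spots. With the slide as a block in 1 fit over the 8 arrays the CA9 mean was 1.30 in ErbB2-KD and 2.05 in MUC4-KD (limma adjusted p = 0.011). Both the ratios by slide and this fit take the MUC4-KD direction as labelled. Turned, MUC4-KD array 2 would lie below 0, beside ErbB2-KD arrays 1 and 3 above it. The fit was not run that way.

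CA12, the other transmembrane member, was dim. In ErbB2-KD its brighter probe gave 1.09, 0.10, 0.19 and 0.23, the highest in EV7, where CA9 was also high, and without the flagged spots array 4 gave 0.59. It was well above background in the clone on 3 of 4 arrays and in NT on 1, so it was not tested. In MUC4-KD it gave 0.03, -0.47, -0.06 and -0.05 (mean -0.14 ± 0.22, SD, n = 4, limma adjusted p = 0.44), and without the flagged spots array 4 gave -0.57. The second CA12 probe stayed at background in both channels of all 8 arrays.

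CA4, the lipid-anchored member, stayed at background in both channels of the 4 MUC4-KD arrays. In ErbB2-KD it was above background in the clone on 2 arrays, with ratios of 0.37, -0.06, -0.03 and -0.01, and it was not tested in either experiment.

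CA13, a cytosolic enzyme, was lower in RNA labelled MUC4-KD on all 4 arrays, at -0.90, -1.41, -0.65 and -0.88 (mean -0.96 ± 0.32, SD, n = 4, limma adjusted p = 0.0142). Without the flagged spots array 4 gave -1.48 and the mean was -1.11 ± 0.40 (SD, n = 4, limma adjusted p = 0.00773). The call was lost without array 1 or array 3 (limma adjusted p = 0.0705 and 0.0729), with the slide as a block (limma adjusted p = 0.0655) and with the replicate number as a block (limma adjusted p = 0.0605). In ErbB2-KD the same probe was 1.37 in EV7, -0.01 in EV12, -0.89 in EV9 and 0.01 in EV18. The clones that were both high for CA9 therefore lay on opposite sides of the pool for CA13. The second CA13 probe was dim, and it was above background in Mock on 2 of 4 arrays and in the MUC4-KD RNA on none. For that probe a MUC4-KD mean of -0.14 was measured.

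CA2, the widespread and very active cytosolic enzyme, was above background on all 4 arrays in RNA labelled MUC4-KD and in Mock on 1. Its MUC4-KD ratios were 0.39, -0.17, 0.58 and 0.02 (mean 0.21 ± 0.34, SD, n = 4, limma adjusted p = 0.361), on both sides of 0. It had entered the test through the MUC4-KD RNA only, so nothing is read from its test. In ErbB2-KD it was above background on 2 of 4 arrays in each RNA, with ratios from 0.03 to 0.33, and was not tested. Its ratio on ErbB2-KD array 4 was 0.79 without the flagged spots.

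CA11, a related protein without catalytic activity, was below its control on all 8 arrays as labelled, and with the MUC4-KD ratios turned it would be below on 4 and above on 4. The ErbB2-KD ratios were -0.43, -0.75, -0.31 and -0.42 (mean -0.48 ± 0.19, SD, n = 4). The MUC4-KD ratios were -1.001, -0.52, -0.76 and -0.04 (mean -0.58 ± 0.41, SD, n = 4), which did not pass the test (limma adjusted p = 0.0622). Without the flagged spots array 4 gave -0.43 and the mean was -0.68 ± 0.26 (SD, n = 4), which passed it (limma adjusted p = 0.0165), as it also did without array 4 (limma adjusted p = 0.0108).

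CA8, the other related protein, separated MUC4-KD arrays 1 and 3 (-0.60 and -0.79) from arrays 2 and 4 (0.60 and 0.03). The mean was -0.19 ± 0.63 (SD, n = 4, limma adjusted p = 0.587), and without the flagged spots array 4 gave 0.34. Arrays 1 and 3 carry opposite dyes, as do 2 and 4, and whether each pair holds the same clone is not given by the labels. A gap of more than 1 between these pairs was seen for 724 of 24992 tested probes, or 2.9%, and CA8 had a gap of -1.01. CA9 had a gap of 1.04, with array 4 alone low. Without the flagged spots array 4 gave 1.61 for CA9, and the CA9 gap was narrower. In ErbB2-KD CA8 was above background in each RNA on 1 of 4 arrays.

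Across the members, 6 of the 9 probes were bright enough to test in MUC4-KD, and 2 of them passed the test, CA9 higher and CA13 lower. Of all 24992 probes tested in that comparison 20.5% passed, 12.0% higher and 8.50% lower. CA2 and CA8 entered this test through the MUC4-KD RNA only. When both RNAs had to be above background on all 4 arrays, 4 member probes were left and 2 passed, where 22.2% of 21930 probes did. In ErbB2-KD, 3 of the 9 probes were bright enough (CA9, CA11 and CA13), and limma called 0 of them at an adjusted p under 0.05, where 1.48% of 23817 probes were called (0.563% higher and 0.920% lower). At an unadjusted limma p under 0.05, 2 of the 3 passed, and so did 4299 of the 23817 probes tested. The methods' t-test gave 1 of the 3 unadjusted, where 3173 of all probes (13.3%) passed, and 0 of either after Benjamini-Hochberg adjustment. Because this contrast was used in choosing CA9, nothing is read from these counts.

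**Figure D2:**
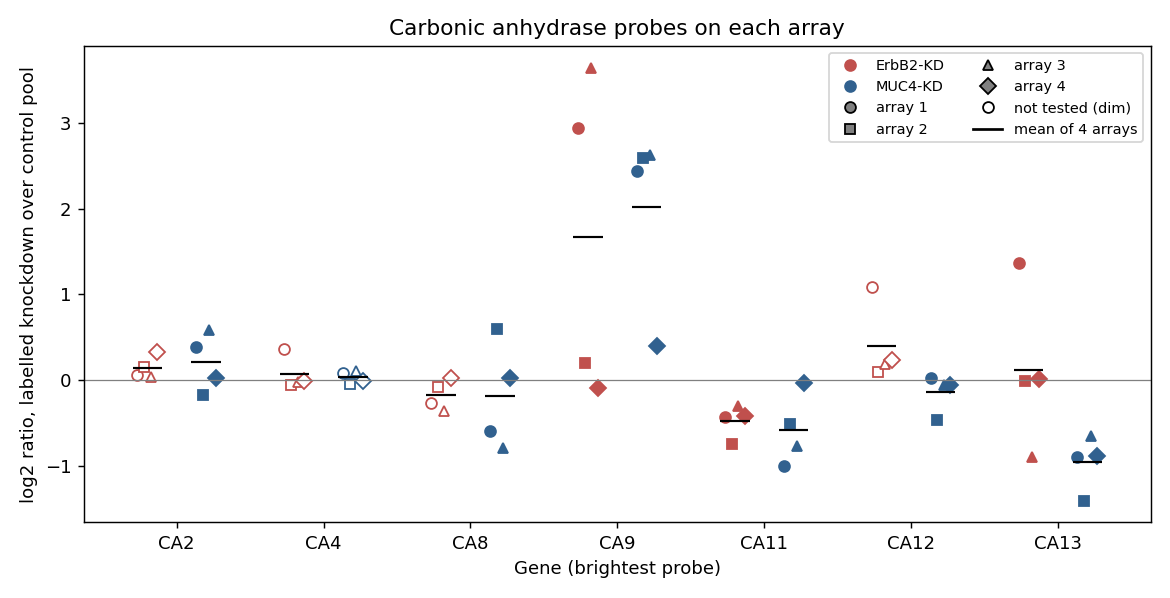
Log2 ratio of each carbonic anhydrase (brightest probe), labelled knockdown over control pool, on the 4 ErbB2-KD arrays (red) and the 4 MUC4-KD arrays (blue), with a symbol for each array number, open symbols for probes too dim to test and a line at the mean. CA9 spans -0.09 to 3.65 in ErbB2-KD, CA13 spans -0.89 to 1.37, and CA11 lies below 0 on all 8 arrays as labelled (on 4 with the MUC4-KD ratios turned).

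The rest of the family held no called probe. CA1, CA3, CA5A, CA5B, CA6, CA7, CA10 and CA14 had 11 probes, of which 3 were bright enough to test with ErbB2-KD and 4 with MUC4-KD. Limma called 0 of them in each experiment at an adjusted p under 0.05, and at the same threshold 1.48% and 20.5% of all probes were called. The means of these 11 probes ran from -0.06 to 0.14 with ErbB2-KD and from -0.20 to 0.42 with MUC4-KD. The highest was CA14, a transmembrane enzyme, at 0.60, 0.75, 0.32 and 0.01 in MUC4-KD.

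Genes that move bicarbonate, protons and lactate across membranes were compared as a list. Of 7 bicarbonate transporter probes tested in MUC4-KD, 1 was higher and 0 were lower, beside 12.0% and 8.50% of all probes. The higher one was for the sodium bicarbonate cotransporter SLC4A7 (0.77, limma adjusted p = 0.0234). The other SLC4A7 probes tested did not pass (0.22 and 0.33, limma adjusted p = 0.291 and 0.138). Among the probes for proton and lactate transport, that of the organelle exchanger SLC9A7 was higher (0.52, limma adjusted p = 0.0426). In ErbB2-KD 0 of 8 bicarbonate probes passed the test, where 1.48% of all probes did. Of 12 proton and lactate probes 1 did, for the lactate exporter SLC16A3, which was lower at -0.76, -0.67, -0.93 and -0.62 (mean -0.75 ± 0.14, SD, n = 4, limma adjusted p = 0.0425).

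CA9 belongs to the HIF targets, and the other targets were set beside it on each array. In MUC4-KD 28 of 39 probes of 22 HIF target genes were higher and 1 was lower, beside 12.0% and 8.50% of all probes. The gene median was 1.41. The highest were ANGPTL4, a secreted regulator of lipoprotein lipase, at 4.37, 4.63, 4.22 and 2.48, and NDRG1, a stress-response protein, at 2.60, 3.02, 2.67 and 3.17. Array 4 is the array with the most distorted background fit. Without the flagged spots the ANGPTL4 mean was 4.21 instead of 3.92, and the NDRG1 mean was 2.90 instead of 2.86. The single lower call was 1 of 4 VEGFA probes (A_24_P12401, -0.46, limma adjusted p = 0.0423), while another VEGFA probe was higher (A_23_P81805, 1.61, limma adjusted p = 0.00533), so the probes of this growth factor disagreed. Without the flagged spots 31 probes were higher and 1 lower, where 29.1% of all probes passed in either direction.

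In ErbB2-KD 0 of the 39 HIF target probes were higher and 1 was lower, for the mitophagy receptor BNIP3 (mean -1.47 ± 0.17, SD, n = 4, limma adjusted p = 0.014). Of all probes only 0.563% were called higher and 0.920% lower, so no absence of a response is read from this count. The median of the 22 target genes was 0.55, -0.61, -0.12 and -0.12 on arrays 1 to 4. On array 3, where CA9 was highest, this median lay below 0, and on array 1 it lay above 0. In MUC4-KD the medians were 1.70, 1.32, 1.48 and 1.02, the last on the array with the most distorted background fit.

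**Figure D3:**
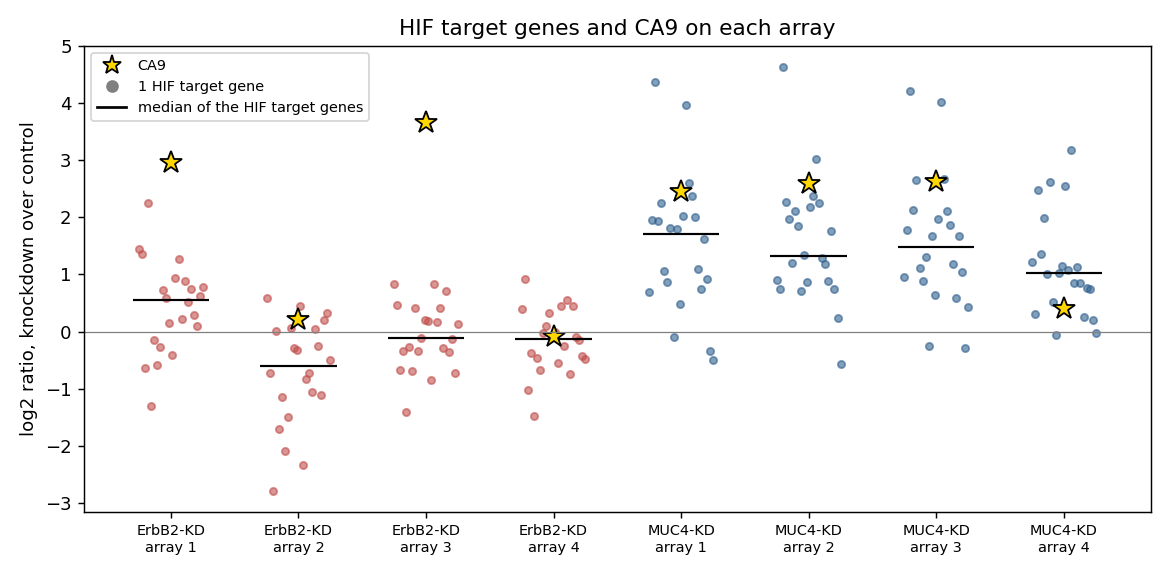
Log2 ratios, labelled knockdown over control pool, of HIF target genes (dots, brightest probe where tested), their median (line) and CA9 (star) on each array. The median runs from 1.02 (array 4, with the most distorted background fit) to 1.70 across MUC4-KD arrays. It runs from -0.61 to 0.55 across ErbB2-KD arrays, where the CA9 star at 3.65 on array 3 stands above every dot.

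Of the genes that regulate HIF, 3 of 12 probes were higher and 2 lower in MUC4-KD, beside 12.0% and 8.50% of all probes. With the flagged spots left out 4 were higher and 3 lower, where 29.1% of all probes passed in either direction. HIF1A, the oxygen-controlled subunit, was higher at 1.42, 0.95, 1.54 and 0.73 (limma adjusted p = 0.012). EGLN1, a prolyl hydroxylase that marks it for destruction, was higher at 1.07, 1.21, 1.14 and 1.16 (limma adjusted p = 0.00392). EPAS1, which encodes HIF-2α, was lower at -1.71, -0.64, -1.70 and -0.49 (limma adjusted p = 0.0324). A second EPAS1 probe did not pass (A_23_P430120, -0.36, limma adjusted p = 0.114). HIF1AN, which inhibits HIF, was lower with a mean of -0.60 (limma adjusted p = 0.0465). In ErbB2-KD 0 of 11 probes passed the test, where 1.48% of all probes did.

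The genes most like CA9 were ranked by the uncentred correlation of the 8 log2 ratios over 890 genes with a root mean square ratio of at least 1. The 10 highest were NLRP7, DACT1, NGEF, GM2A, SH3TC2, LRIG1, IFFO1, CYBRD1, COL8A1 and IZUMO4, from 0.95 to 0.89, against a median of -0.04 over the genes compared. The 8 points share 2 control pools and 3 slides, and the measure is a description. NLRP7, an inflammasome family member, came first, at 2.57, 0.09, 3.00 and 1.03 in ErbB2-KD and 3.12, 3.43, 2.97 and 1.77 in MUC4-KD. It shared with CA9 the low ratio in EV12 and the high ratios in EV7 and EV9, but not the ratio near 0 in EV18. No HIF target was among the 10. Of the 22 HIF target genes, 13 passed the root mean square filter, and they ranked from 83 to 377 of the 890 genes, with correlations from 0.79 to 0.23. The HIF targets, like CA9, were mostly high in MUC4-KD, so the filter favoured targets with a positive correlation. Nothing is read from their ranks. With the flagged spots left out, 7 of the 10 genes were again among the first 10, and with the log ratios of the scanner software 4 were.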

How the data were processed

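RNA of CAPAN-2 clones was measured on 8 Agilent 2-colour arrays. The authors deposited Feature Extraction 10.5.1.1 output with the intensity of each spot and its local background, a log10 ratio of Cy5 over Cy3 and its error (a further value that was not used in tests). Their table of log10 ratios equals these, turned to knockdown over control, within 4.99e-06. The intensities were corrected by normexp (offset 50, fitted on all spots) in limma 3.58.1 under R 4.3.3, arrays were normalized by loess, outlier spots were left out, and ratios were turned to labelled knockdown over control. Accessions gave a symbol for 25398 of 41000 probes. Probes entered the test when 1 of the RNAs, knockdown or control, exceeded background clearly on each of the 4 arrays. The mean was tested against 0 with lmFit and eBayes, with Benjamini-Hochberg adjustment over all probes tested. The pool counts as 1 control sample, so p-values measure the spread between these arrays only. A gene's value is that of its brightest probe.

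The members and gene lists were chosen with earlier results of these data known. The rule for named genes took all members, the rest of the family, the 10 genes most like CA9, and the extremes of the lists among probes past the threshold. Some genes of the proton and lactate transport list are not reported here. Alternatives were an offset of 10, the Feature Extraction log ratios, median centring, other filters, a dye term, an intensity trend, fits over 8 arrays with slide or replicate blocks, the methods' t-test, the mean of a gene's probes, arrays left out or averaged, and 2 normexp fits without outlying spots, which were added after a low CA9 ratio on MUC4-KD array 4 had been seen. The steps were tested on simulated data. The number of arrays limits the precision.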

Additional observations from a re-analysis of the deposited data

Results flagged for a closer look

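Of 14 sets of 4 arrays (7 members in each experiment), 3 held an array whose gap to its nearest neighbour, divided by the range, was above Dixon's critical value, where chance gives about 1 in 20. The sets include the ErbB2-KD values used in choosing the members and probes too dim to test, so this count is a description. With the log ratios of the scanner software none of the 3 was above the critical value. CA9 on MUC4-KD array 4 was at 0.40, with a gap over range of 0.919, 0.818 when normexp was fitted without flagged spots, and 0.609 with the scanner software's log ratios. CA12 on ErbB2-KD array 1 was at 1.09, with 0.864, 0.530 without the flagged spots, and 0.453 with the scanner software's log ratios. CA4 on ErbB2-KD array 1 was at 0.37, with 0.873, 0.890 without the flagged spots, and 0.319 with the scanner software's log ratios, in a probe too dim to test.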

How the results depend on the processing

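In MUC4-KD, 2 member probes passed the threshold (CA9 and CA13). The count was 0 with median centring, where 1 of all 24992 probes passed, 1 without a filter on dim probes (CA13), 1 with the replicate block (CA9), 0 with the methods' t-test after Benjamini-Hochberg adjustment, and 0 to 3 when an array was left out. CA13 was also lost with the slide as a block (limma adjusted p = 0.0655). CA11 was added with the Feature Extraction log ratios, in 1 fit over 8 arrays, with the slide block, without array 4, and in both normexp fits without outlying spots, which gave 3 calls each. The cause was not tested. In ErbB2-KD the count of 0 became 1 (CA11) with the methods' t-test at an unadjusted p. The CA8 mean in MUC4-KD, -0.19, became 0.095 with the Feature Extraction log ratios, and ran from -0.45 to 0.0099 when an array was left out (the latter without array 3). The other tested members kept their direction in MUC4-KD under every alternative run. Leaving out an array, the ErbB2-KD mean ran from 1.02 to 2.26 for CA9 and from -0.30 to 0.46 for CA13.

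Over all probes, the normexp fit without flagged spots raised the calls from 353 to 554 in ErbB2-KD and from 5132 to 7267 in MUC4-KD. Leaving out an array gave 0 to 493 and 155 to 9335. The ErbB2-KD calls were 31 with median centring, 50 without a filter, 190 with a dye term, 0 with the intensity trend, 1121 in 1 fit over 8 arrays and 1067 with the slide block. The MUC4-KD calls were 2924 without a filter and 2803 with the intensity trend. Same-numbered arrays did not deviate together (correlations -0.12, -0.24, -0.05 and -0.13). They carried the knockdown in opposite dyes, so this check cannot tell whether the numbers pair anything. The replicate block gave 533 and 4317 calls. Dim signals in CA2, CA4, CA8 and CA12 limit what their ratios can show.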
